A study of Homo sapiens with 36 samples.

Results

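The comparison set HK-2 cells exposed for 48 h to a low dose of a compound labelled Aa against cells that received its vehicle for the same time. The 3 arrays of each group were chosen by the compound, dose and time in the sample labels, which makes 6 of the 36 arrays of the series. HK-2 is a line of human kidney proximal tubule cells immortalised with papillomavirus oncogenes, so all arrays are of 1 line, which carries viral proteins that act on p53 and RB. Both groups grew in a medium with EGF, hydrocortisone, insulin, transferrin and selenite and were near confluence when exposure began. The labels do not spell out the name Aa or give a concentration. They call the 3 arrays of a group biological replicates without saying what separated the cultures. The p-values of genes therefore measure the spread between arrays of a group, pooled over all 18 Aa arrays. Further Aa groups of 3 arrays each served as reference: vehicle and low dose at 24 h, and high dose at 48 h. The high dose group at 24 h was not compared, but entered the level filter, the pooled spread and the principal components.

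Epithelial cells that fill a dish slow their division, and the genes of mitosis then decline with the age of the culture. Those genes are switched on late in the cell cycle by complexes that hold B-MYB and FOXM1 and act through promoter elements named CHR and CCAAT box. The genes of DNA replication are switched on earlier, by E2F factors. CDKN1A, a p53 target, inhibits the kinases that drive both steps. Proximal tubule cells take up and excrete many foreign compounds, and immediate early genes such as FOS and ATF3 are among the first to respond when such cells are stressed or stimulated.

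Total RNA was labelled and hybridised to 1-colour Affymetrix arrays, and the values are log2 levels per probe set with 1 probe set taken per gene. Of 19775 genes on the array, 10972 exceeded a log2 level of 4 on at least 3 Aa arrays and were tested. A gene was called at an adjusted p under 0.05 (limma, Benjamini-Hochberg over all tested genes). All changes are low dose minus control on the log2 scale ± SE unless another comparison is named, and a level at or under 4 has no dependable order. The median level, the number of genes above 4 and the 3′ minus 5′ differences of ACTB and GAPDH probe sets, a sign of RNA quality, gave exact two-sided permutation p-values from 0.4 to 0.8, where 3 arrays against 3 cannot go below 0.1. These tests compared groups and could not show a difference between replicates. The ACTB difference was 0.80, 1.11 and 0.68 in control replicates 1, 2 and 3, and 0.80, 1.23 and 0.81 in the low dose arrays. It was thus highest in replicate 2 of both groups, while that of GAPDH was lowest there. Whether this bears on the levels of replicate 2 was not tested.

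Low dose replicate 2 stood apart from the other low dose arrays. Its Pearson correlations with the 3 controls over the tested genes were 0.961 to 0.963, against 0.931 to 0.946 for replicates 1 and 3. On the first principal component of the 18 Aa arrays it lay at -11.25, against 9.63 and 11.04 for the other low dose arrays and -65.11 to -56.45 for the controls. Over all called genes the median absolute difference from the control of the same number was 0.836, 0.677 and 0.795 in replicates 1, 2 and 3. The counts over all genes and those of several lists are therefore also given without this array.

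Low dose Aa changed 4158 of the 10972 genes, or 37.9%, almost evenly split between 2064 higher (18.8%) and 2094 lower (19.1%). Without low dose replicate 2 the counts were 2078 higher and 2126 lower. At least 2-fold changes were called for 619 higher (5.64%) and 768 lower genes (7.0%). All 3 low dose arrays lay above all controls for 2648 genes (24.1%) and below them for 2651 (24.2%). In limma 5179 of the 10972 genes had an unadjusted p under 0.05. The following gene lists are read against these shares. With the replicate number as a block in the model, to which the block counts of lists refer, 2945 genes rose (26.8%) and 2894 fell (26.4%). In these bulk cultures, fewer cells of a kind and less RNA per cell cannot be told apart.

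**Figure D1:**
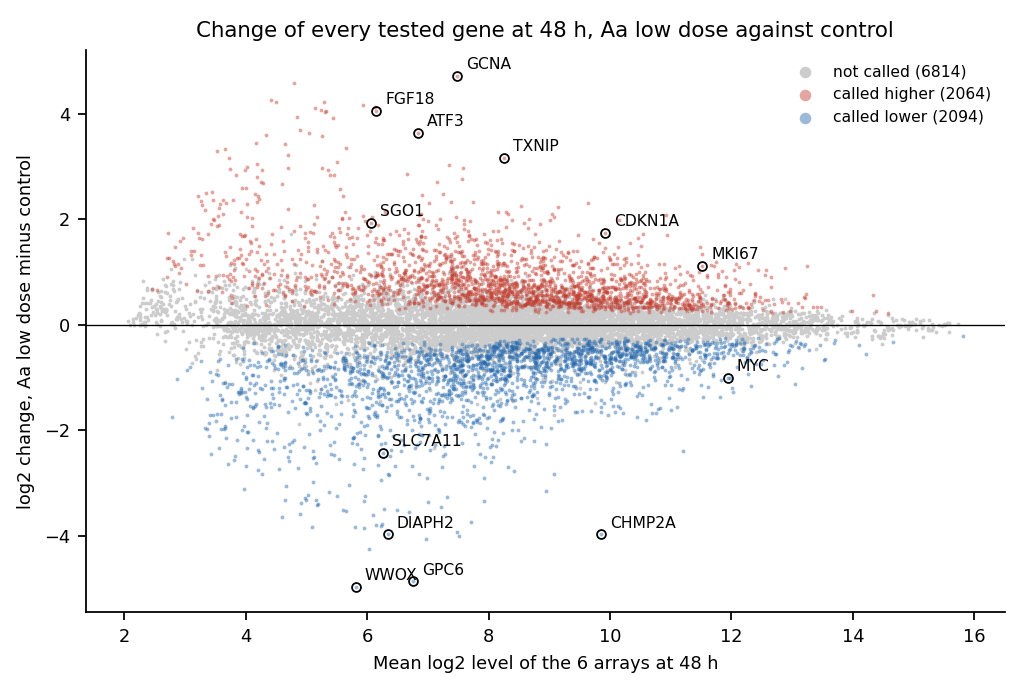
Log2 change of each of the 10972 tested genes (vertical axis) against its mean log2 level over the 6 arrays at 48 h (horizontal axis), with 2064 genes called higher in red, 2094 called lower in blue and the rest in grey. Named genes are circled, and the rises of over 4 log2 units lie at mean levels under 8, while CHMP2A, which fell by 3.97, lies near 10.

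Among the largest rises were several genes that the controls hardly showed. FGF18, a growth factor of the FGF family, stood at 3.77, 4.46 and 4.14 in the controls and at 8.72, 7.80 and 8.02 in the low dose arrays, a rise of 4.06 ± 0.44 (adjusted p = 9.28e-06). The amine oxidase gene AOC3 was at 3.10, 3.02 and 3.14 in the controls and at 6.87, 7.71 and 7.02 after exposure. All 3 controls of AOC3 were at or under 4, so its rise was at least 9.19-fold (means 3.09 and 7.20, adjusted p = 2.2e-07). IL20RB, a subunit of the receptors for IL-20 family cytokines, was at least 10.6-fold higher (means 3.48 and 7.41, adjusted p = 8.87e-07), and SHISA2 also at least 10.6-fold (3.19 and 7.41, adjusted p = 2.96e-06). ANGPTL4, an inhibitor of lipoprotein lipase, was at least 7.26-fold higher (3.21 and 6.86, adjusted p = 1.74e-05). SLC27A3, of the fatty acid transport protein family, rose by 4.17 ± 0.36, or 3.83 with values at or under 4 set to 4.

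The largest falls began from higher levels, and in all 15 of the most extreme falls low dose replicate 2 lay nearest the controls of the 3 low dose arrays. It was the nearest in 10 of the 15 largest rises, and in 67.2% of all genes called lower and 53.9% of those called higher. CHMP2A, a subunit of the ESCRT-III membrane scission complex, had control levels of 11.62, 11.99 and 11.91 and low dose levels of 6.83, 9.31 and 7.46, a change of -3.97 ± 0.44 (adjusted p = 1.07e-05). The tetraspanin gene TSPAN31 went from 8.98, 9.27 and 8.75 to 4.73, 6.07 and 4.04 (-4.06 ± 0.43, adjusted p = 7e-06). TRPT1, a tRNA phosphotransferase, went from 8.23, 7.82 and 8.08 to 3.82, 4.94 and 3.98 (-3.80 ± 0.32, or -3.73 floored at 4). The groups did not overlap for any of these genes, and replicate 2 was the highest low dose array each time. GMDS, the first enzyme of GDP-fucose synthesis, fell by 3.78 ± 0.43 (floored -3.59). The orphan receptor gene GPR160 fell from a mean of 9.51 to 5.50 (adjusted p = 0.000756). The fall of SCEL, -3.74 ± 1.02 (adjusted p = 0.00952), was not called without low dose replicate 3 (adjusted p = 0.0549).

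**Figure D2:**
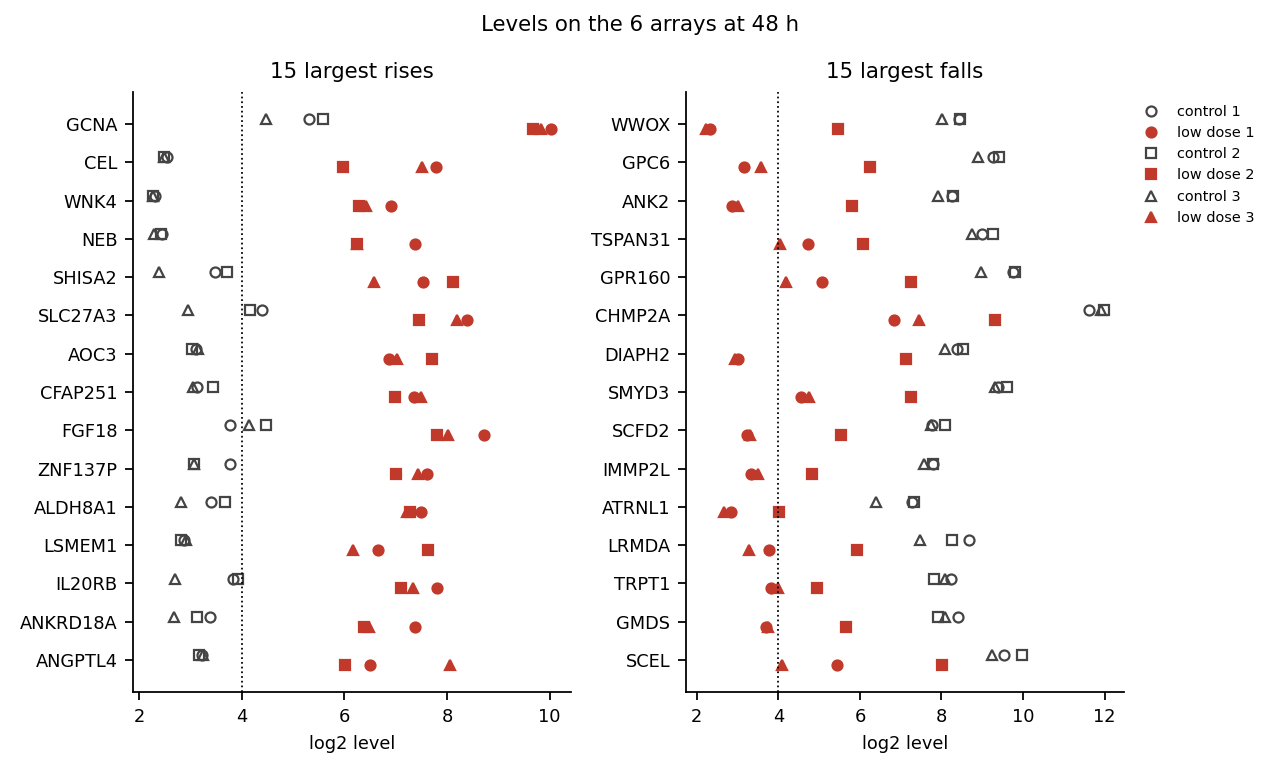
Log2 levels on the 6 arrays at 48 h (horizontal axis) of the 15 genes with the largest rises (left) and the 15 with the largest falls (right), controls as open and low dose as filled symbols, with a shape for each replicate and a dotted line at 4. In all 15 falls the square of low dose replicate 2 lies nearest the controls.

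Genes of mitosis were higher in the low dose cultures. Of 60 tested genes of spindle, kinetochore and late cell cycle control, 47 rose and 0 fell, with a median change of 0.72 against 0.01 over all tested genes. The other 13 members ranged from -0.35 for CDC25B to 0.76 for INCENP, and 50 of the 60 had an unadjusted p under 0.05. With the replicate number as a block 49 rose and 1 fell, the latter CDC25B (adjusted p = 0.0218). Without low dose replicate 2, 43 rose and 0 fell. Leaving out any other of the 6 arrays left between 40 and 47 higher and 0 lower.

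The largest mitotic rise was that of SGO1, which protects the cohesion of sister centromeres. Its control levels were 5.32, 5.23 and 4.75 and its low dose levels 7.33, 6.87 and 6.92 (1.94 ± 0.22, adjusted p = 1.51e-05). FOXM1, the transcription factor of this gene programme, stood at 9.05, 8.56 and 9.08 in controls and at 10.80, 10.07 and 10.70 after exposure (1.63 ± 0.23, adjusted p = 9.3e-05). Its probe set was taken for want of another and is by its name prone to cross-hybridisation. The centrosome kinase NEK2 rose by 1.49 ± 0.17 and ESPL1, the separase that cleaves cohesin, by 1.39 ± 0.19. In each of these genes every low dose array lay above every control. The proliferation marker MKI67 went from 10.77, 10.81 and 11.28 to 12.14, 11.93 and 12.16 (1.12 ± 0.14), the topoisomerase TOP2A rose by 1.17 ± 0.11 and the mitotic kinase CDK1 by 1.04 ± 0.10. CCNB1, the gene of cyclin B1, rose by 0.38 ± 0.13 (adjusted p = 0.0321), and the call was lost without control replicate 1 (adjusted p = 0.154), control replicate 2 (0.0683), low dose replicate 2 (0.0679) or low dose replicate 3 (0.0968). Its other, dimmer probe set rose by 0.79 ± 0.16 (adjusted p = 0.00145).

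The promoters of the 3 genes with the largest mitotic rises that the RefSeq table holds (GRCh38.p14, 250 bases before to 50 after the start) are shown for the elements named above. Capitals mark matches to CHR (TTTGAA or TTCGAA) and to the CCAAT box (CCAAT), searched on both strands.
SGO1, chr3:20186157-20186456, minus strand: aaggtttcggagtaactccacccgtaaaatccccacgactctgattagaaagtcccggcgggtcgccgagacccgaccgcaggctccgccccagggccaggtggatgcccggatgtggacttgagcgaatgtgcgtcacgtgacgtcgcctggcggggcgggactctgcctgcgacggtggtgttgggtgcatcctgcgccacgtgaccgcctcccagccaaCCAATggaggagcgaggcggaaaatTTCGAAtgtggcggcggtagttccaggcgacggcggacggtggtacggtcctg
NEK2, chr1:211675572-211675871, minus strand: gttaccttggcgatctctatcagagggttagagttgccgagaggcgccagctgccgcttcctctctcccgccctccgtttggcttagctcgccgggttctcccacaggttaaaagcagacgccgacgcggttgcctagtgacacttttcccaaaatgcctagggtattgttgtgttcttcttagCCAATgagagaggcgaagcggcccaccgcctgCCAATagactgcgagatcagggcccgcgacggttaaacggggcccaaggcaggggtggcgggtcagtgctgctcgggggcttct
ESPL1, chr12:53268049-53268348, plus strand: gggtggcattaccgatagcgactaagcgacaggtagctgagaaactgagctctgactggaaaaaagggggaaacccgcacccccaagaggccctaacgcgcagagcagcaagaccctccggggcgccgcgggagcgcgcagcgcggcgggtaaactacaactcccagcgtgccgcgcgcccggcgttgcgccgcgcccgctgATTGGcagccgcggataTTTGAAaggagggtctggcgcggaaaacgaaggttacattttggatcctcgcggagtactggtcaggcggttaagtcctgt
SGO1 held a CCAAT box at position -28 and a CHR at -3 relative to the start, and ESPL1 a CCAAT box on the opposite strand at -48 and a CHR at -31. NEK2 held CCAAT boxes at -66 and -34 and no CHR letters in this window. Over the mitotic list, 64 promoters of 51 genes were in the table, of which 67.2% held a CHR, 71.9% a CCAAT box and 53.1% both. Over all 35116 promoters of the table the shares were 16.4%, 34.6% and 6.38%.

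The controls themselves changed with time, which sets the level from which these rises were measured. The mean log2 level of the 60 mitotic genes was 10.50, 10.48 and 10.76 in the controls at 24 h and 10.01, 9.96 and 10.23 at 48 h. In low dose cultures it was 10.31, 10.33 and 10.12 at 24 h and 10.83, 10.71 and 10.81 at 48 h. So the low dose mean lay below all controls at 24 h, and above all controls of the same age at 48 h. Set beside the younger controls, the low dose arrays at 48 h overlapped with replicate 3.

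Between 24 h and 48 h, 142 of all genes changed in the controls (1.29%), 62 higher (0.565%) and 80 lower (0.729%). Of the 60 mitotic genes, 13 fell and 0 rose, with a median of -0.51. MKI67 fell by 0.71 and CCNB1 also fell by 0.71, while the change of TOP2A was -0.36 and was not called. These ageing counts depend strongly on single arrays and on the pairing of the replicates. With the replicate number as a block, 45 mitotic genes fell and 1792 genes changed in all (16.3%). The mitotic falls were 0 with only the 6 arrays compared in the fit, 5 with all 36 arrays, 21 with a higher level filter or values at or under 4 set to 4, 23 with the mean of all probe sets of a gene and 27 with a trended, robust prior. With single arrays left out the mitotic count was 30 without 48 h control replicate 3 and 12 without 24 h control replicate 1. It was 1 without 48 h control replicate 1 or 2, 2 without 24 h control replicate 2 and 0 without 24 h control replicate 3. The median stayed negative in all of these fits, from -0.59 to -0.42.

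Against the 24 h controls, 4044 of all genes (36.9%) differed in the low dose arrays at 48 h, 1976 higher and 2068 lower. Of the mitotic genes 18 were higher and 3 lower, with a median of 0.24, and 25 and 6 under the replicate block, which called 51.5% of all genes. The higher count with single arrays left out ran from 9 higher without low dose replicate 1 and 10 without 24 h control replicate 1 or 2 to 24 without 24 h control replicate 3, and were 11 without low dose replicate 3. The lower count ran from 2 to 5, with 5 without 24 h control replicate 1. This comparison and the one with controls of the same age share the low dose arrays.

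**Figure D3:**
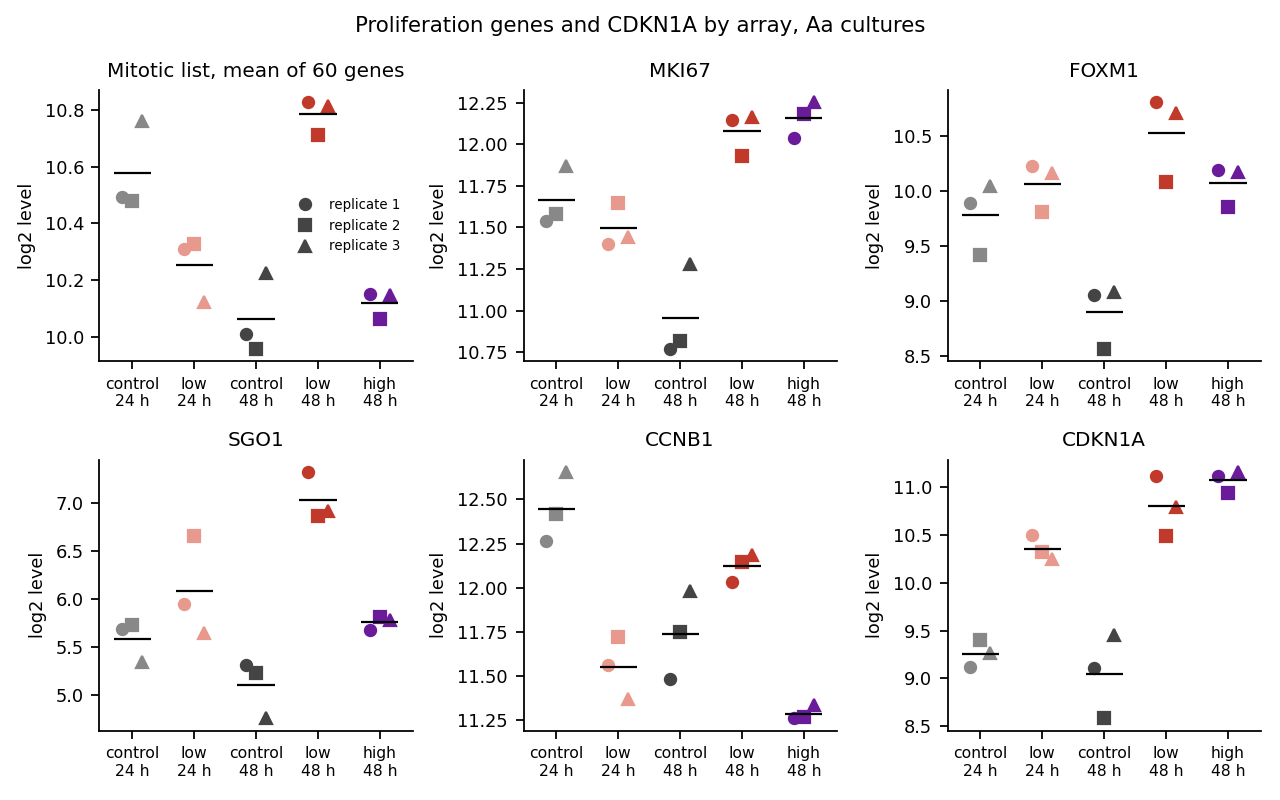
Log2 level on each array (vertical axis) of the mean of the 60 mitotic genes, of MKI67, FOXM1, SGO1 and CCNB1, and of CDKN1A, in 5 Aa groups, with a shape for each replicate and a line at the mean of 3 arrays. The mitotic mean is 10.71 to 10.83 in the low dose at 48 h and 9.96 to 10.23 in its controls, while CDKN1A is also above its controls.

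The difference between the low dose effects at 48 h and at 24 h was tested as an interaction. It was called for 180 of all genes, 151 more positive at 48 h (1.38%) and 29 more negative (0.264%). The mitotic genes supplied 43 of those 151, with 0 more negative, and their median difference between effects was 1.04. This difference also holds the change of the controls between the times, which had a median of -0.51 in these genes. NEK2 had a difference of 1.71 (adjusted p = 0.0037), MKI67 of 1.29 (0.005) and CCNB1 of 1.28 (0.0037), while that of FOXM1, 1.35, was not called (0.057). The mitotic count was 56 with the replicate block, which called 9.31% of all genes, and 22 with only the arrays of the groups compared. It was 27 without 48 h control replicate 1 or low dose replicate 1, 26 without 48 h control replicate 2, 25 without 24 h control replicate 3 and 28 without 24 h low dose replicate 3. Without low dose replicate 2 at 48 h it was 44.

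High dose cultures at 48 h did not share these levels. Their mitotic mean was 10.15, 10.06 and 10.15, below all low dose arrays and inside the range of the controls. Of all genes, 2298 were higher (20.9%) and 2809 lower (25.6%) at the high than at the low dose, and of the mitotic genes 2 were higher and 44 lower. SGO1 was lower at the high dose (-1.28, adjusted p = 0.00029), as was TOP2A (-0.95, 9.7e-06). For MKI67 the difference was 0.08 and was not called.

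Of 46 tested DNA replication genes 16 rose and 6 fell, with a median of 0.24. Over all tested genes 18.8% rose and 19.1% fell. Without low dose replicate 2 the counts were 15 and 6, and the lower count was 3 without low dose replicate 1 or control replicate 3. MCM10, which helps start the replicative helicase, went from 6.91, 6.91 and 7.74 to 8.79, 8.99 and 9.11 (1.78 ± 0.21, adjusted p = 1.59e-05). The origin recognition subunit ORC6 and the loader CDC6 each rose by 1.22 (SE 0.14 and 0.18), and CLSPN, the claspin that relays fork stress to checkpoint kinases, by 1.13 ± 0.23. The ORC6 probe set is by its name prone to cross-hybridisation. In MCM10 the lowest low dose array was more than 1 log2 unit above the highest control. Among the clamp and helicase genes, PCNA at 0.14 ± 0.09 and MCM2 at 0.04 ± 0.09 were not called, and MCM6 fell by 0.87. In the ageing controls 4 of the 46 fell and 0 rose, MCM10 among them (-1.11). That count was 25 with the replicate block, 11 without 48 h control replicate 3 and 0 without any 1 of 24 h control replicates 2 and 3 or 48 h control replicates 1 and 2.

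Regulators of the G1 phase included some of the clearest rises. Of 25 members, 11 rose and 2 fell, the latter MYC and E2F5, and 4 fell under the replicate block. E2F2, an activating E2F factor, stood at 6.11, 6.55 and 5.98 in the controls and at 8.57, 8.56 and 8.51 in the low dose arrays (2.33 ± 0.14, adjusted p = 9.61e-08). CDC25A, a phosphatase that activates CDK2, rose by 1.56 ± 0.16. Genes that hold the cycle back rose as well. CDKN2B, which encodes the CDK4 and CDK6 inhibitor p15, went from 3.57, 3.47 and 3.36 to 6.98, 7.45 and 6.73, at least 8.3-fold (means 3.47 and 7.05, adjusted p = 1.09e-07), and the related CDKN2D rose by 1.39 ± 0.22. MYC fell from 12.68, 12.34 and 12.32 to 11.45, 11.43 and 11.45 (adjusted p = 6.81e-05). The groups did not overlap in any of these genes. The lower count was 1 instead of 2 without any 1 of the 6 arrays.

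Of the replication-dependent histone genes, 12 of 31 with a probe set passed the filter on low levels, 8 of these rose and 0 fell. A gene could pass through the treated arrays alone, so this count does not stand for the family, of which 19 members stayed at low levels. H1-2, a linker histone, went from 4.97, 5.73 and 5.73 to 6.95, 7.35 and 6.94 (1.60 ± 0.24), and H2BC5 from 6.64, 6.92 and 6.80 to 8.29, 8.38 and 7.33 (1.21 ± 0.23). The mean of the 12 genes was 4.96, 5.16 and 4.92 in the controls and 6.15, 6.27 and 5.50 at the low dose. The high dose mean was higher again, at 8.04, 8.12 and 7.85, with 12 of 12 called higher than at the low dose. A gene could also pass through the high dose arrays alone, so neither this count nor this mean stands for the family. With values at or under 4 set to 4, H2BC21 was higher by 1.64 instead of 2.71 and H3C2 by 2.95 instead of 3.56. Against control, leaving out control replicate 3 gave 5 rises, and leaving out low dose replicate 2 gave 6. These copies share much of their sequence, and their probe sets may not tell all of them apart.

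The p53 target list had 9 of 28 members higher and 3 lower. CDKN1A, the inhibitor p21, stood at 9.11, 8.58 and 9.45 in the controls and at 11.11, 10.48 and 10.79 at the low dose (1.75 ± 0.19, adjusted p = 9.28e-06). It rose beside the mitotic genes in the same arrays, and its interaction of 0.65 was not called. The apoptosis inducer PMAIP1 rose by 1.64 ± 0.26 and GADD45A, a stress sensor, by 1.07 ± 0.20. PLK2 fell by 1.07 ± 0.17. MDM2, which encodes the ligase that degrades p53, was at 8.61, 8.58 and 8.40 in the controls and 8.54, 8.29 and 8.49 at the low dose, groups that overlap (-0.09 ± 0.15, adjusted p = 0.679). GDF15 was not tested through its chosen probe set, which stayed under 4. Another set for it, chosen after its values were seen and prone to cross-hybridisation by its name, rose by 0.79 ± 0.20.

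Repair genes with roles in replicating cells rose more often than those of nucleotide excision repair by count, a difference that was not tested. Of 27 recombination and Fanconi genes 12 rose and 1 fell, the latter RAD50, which was not called without low dose replicate 3 and has another probe set that was called higher. EXO1, a nuclease of mismatch repair and resection, rose by 1.55 ± 0.18, BLM, the Bloom helicase, by 1.06 ± 0.15 and RAD51AP1 by 1.17 ± 0.19. The lower count was 3 without low dose replicate 2 and 2 without control replicate 3, and 3 with the replicate block. Of 22 nucleotide excision repair genes 6 rose and 5 fell. The falls were 8 with the replicate block and 3 without low dose replicate 1 or 3. Without low dose replicate 2, 4 rose and 6 fell. ERCC4, the XPF nuclease subunit, rose from 6.24, 5.92 and 5.55 to 7.61, 7.23 and 7.21 (1.45 ± 0.32). Its partner ERCC1 fell from 9.24, 9.12 and 9.33 to 7.89, 7.71 and 7.92 (-1.39 ± 0.18), with another probe set at -1.34 and a dimmer one at 0.77, all called. Among 11 translesion genes, 3 rose and 1 fell. POLQ, the polymerase of end joining, rose from 7.19, 7.03 and 7.56 to 9.37, 9.25 and 9.49 (2.11 ± 0.17, adjusted p = 7.27e-07), and RAD18, the ligase that marks PCNA at stalled forks, by 1.90 ± 0.21 on its chosen probe set. A dimmer RAD18 set rose by 1.87, and the other two, as bright as the chosen one, had changes of -0.36 and -0.43 that were not called. The one fall, POLI at -0.89 ± 0.32, was lost without control replicate 1 or 2 or low dose replicate 1 or 3 (adjusted p from 0.0548 to 0.15), and another of its probe sets was called higher.

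Immediate early genes were mostly higher: 17 of 32 rose and 4 fell, with a median of 0.77. Without low dose replicate 2 the counts were 18 and 3, and the lower count was 2 without control replicate 1 or low dose replicate 3. ATF3, a stress-induced repressor, went from 5.32, 4.35 and 5.40 to 8.36, 9.48 and 8.16 (3.65 ± 0.40, adjusted p = 1.06e-05). HBEGF, a ligand of the EGF receptor, went from 5.26, 5.81 and 6.42 to 8.51, 9.31 and 8.77 (3.04 ± 0.36), and JUN rose by 1.67. In ATF3 and HBEGF replicate 2 was the low dose array farthest from the controls, whereas in the falls above it was the nearest. FOS rose by 1.78 ± 0.36 (floored 1.62). The rise of FOSL1, 2.15 ± 0.61 (floored 1.87), was lost without control replicate 2 (adjusted p = 0.0713) or low dose replicate 3 (0.059). EGR1 went the other way at -0.84 ± 0.25 and lost its call without control replicate 1 (0.0548), control replicate 3 (0.061) or low dose replicate 3 (0.0863). The 300-base windows at the listed pair of ATF3 starts and at the HBEGF start held no CRE (TGACGTCA) or AP-1 site (TGACTCA) on either strand. These letters were held by 1.85% and 4.95% of all promoters in the table. Whether each listed start is a promoter used in these cells was not tested, and other starts were not searched. Of the 29 promoters of the immediate early list, 3 held the CRE letters (10.3%) and 1 the AP-1 letters (3.45%).

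The interaction was called for 6 of the 32 immediate early genes, all more positive at 48 h, with FOS at 2.14 (floored 1.88) and HBEGF at 2.29. That count was 10 with the replicate block. It was 1 without 24 h control replicate 2 or 3, 48 h control replicate 2, 24 h low dose replicate 2 or 48 h low dose replicate 1. It was 2 without 48 h control replicate 1 or 24 h low dose replicate 1 or 3, and 3 without 48 h low dose replicate 2. At the high dose 16 of the 32 were higher than at the low dose and 3 lower, ATF3 by a further 3.25 and FOS by 3.02. FOSB and the cytokine gene IL11 were also higher at the high dose, by 3.76 and 4.27 with values at or under 4 set to 4. At the low dose IL11 stayed under 4 on all 3 arrays and FOSB exceeded 4 on replicate 2 alone (5.15), and neither was called against control.

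Of 18 tested cytokine and NF-kB genes 5 were higher and 0 lower, with 8 higher and 4 lower under the replicate block, 2 lower without low dose replicate 2 and 1 without control replicate 3. The 5 were TNFAIP3 (1.79 ± 0.33), RELB (1.41 ± 0.33, floored 1.26), LIF (1.24 ± 0.18), NFKBIA (1.01 ± 0.12) and TNFAIP2 (0.98), of which TNFAIP3 and NFKBIA restrain NF-kB. IL6 was at 2.21, 3.90 and 5.54 in the controls and at 3.95, 6.18 and 6.71 at the low dose. Low dose replicates 2 and 3 of IL6 exceeded the control of their number. Both arrays of replicate 1 were under 4 and so have no dependable order. The groups overlapped, and the change of 1.73 ± 0.88 was not called (adjusted p = 0.136). It was called with the replicate block (0.00625), and both fits used the values under 4 without a floor. Of 27 interferon-stimulated genes 6 rose and 3 fell, with 7 falls under the block and 5 without low dose replicate 2 or control replicate 3. IRF1 rose by 1.89 ± 0.26, whereas IFI35 fell from 7.34, 7.20 and 7.34 to 4.40, 4.61 and 4.69 (-2.72 ± 0.24).

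**Figure D4:**
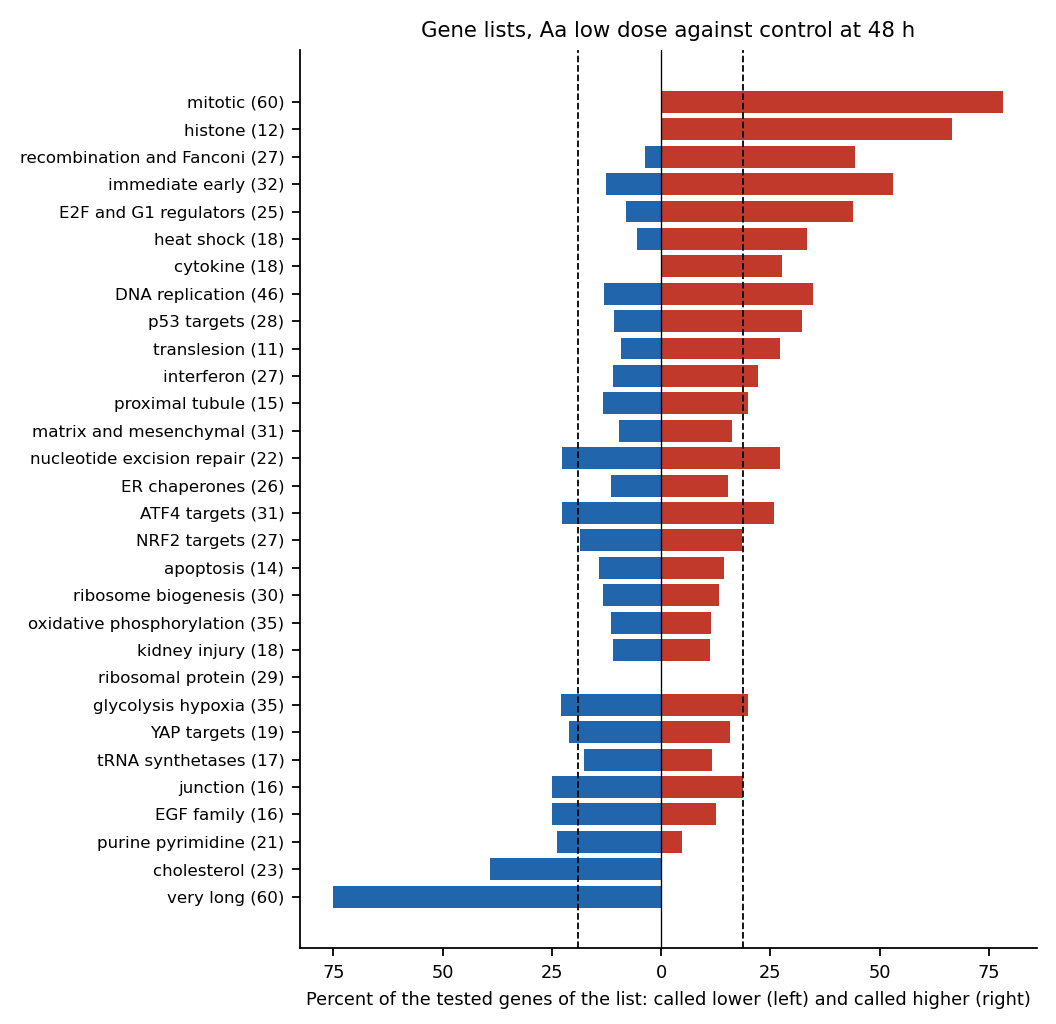
Percent of the tested genes of each list with at least 10 tested genes (number in brackets), the tissue-restricted genes chosen for their rise left out, called lower (left, blue) and called higher (right, red) in the low dose cultures at 48 h, with dashed lines at the shares over all genes, 19.1% lower and 18.8% higher. Of the bars drawn, the mitotic one reaches farthest right (47 of 60) and that of the very long genes farthest left (45 of 60). The histone genes drawn could pass the level filter through treated arrays alone. The lists, that of the very long genes among them, were chosen with earlier results of these data known.

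Of 31 ATF4 targets 8 rose and 7 fell, and 11 fell under the replicate block. PPP1R15A, which restores translation after stress, rose by 1.62 ± 0.27 and the secreted glycoprotein gene STC2 by 2.00 ± 0.25, while the cystine transporter gene SLC7A11 fell from 7.08, 8.38 and 6.95 to 4.16, 6.20 and 4.79 (-2.42 ± 0.44). DDIT3 at -0.16 ± 0.18 was not called, except without control replicate 3 (adjusted p = 0.0347). Of 27 NRF2 targets 5 rose and 5 fell, with 10 rises under the replicate block. HMOX1, the heme oxygenase, rose by 1.08 ± 0.22. NQO1 changed by -0.55 ± 0.16 (adjusted p = 0.0172), a call lost without low dose replicate 1 (0.0828) or control replicate 3 (0.0768). Of the metallothionein list 5 of 7 fell by small amounts, MT1F by 0.51 ± 0.10, whose copies are nearly identical, and MTF1, their transcription factor, rose by 0.56 ± 0.11.

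Cholesterol synthesis genes fell where they changed, 9 of 23 lower and 0 higher, with 12 lower and 1 higher under the replicate block. In limma 12 of the 23 had an unadjusted p under 0.05, against 5179 of all 10972 tested genes. TM7SF2, a sterol reductase, went from a mean of 8.21 to 6.18 (-2.03 ± 0.30), and INSIG1, which holds back sterol-sensing SREBP, from 12.56, 12.43 and 12.43 to 11.52, 11.71 and 11.17 (-1.01 ± 0.18). SC5D fell by 0.71 ± 0.13 on its brighter probe set, and a dimmer one rose by 1.08. Of 35 glycolysis and hypoxia genes 7 rose and 8 fell, the latter 4 without control replicate 1 or low dose replicate 3. TXNIP, a glucose-sensitive inhibitor of glucose uptake, stood at 5.54, 5.99 and 8.49 in the controls and at 9.83, 9.80 and 9.88 at the low dose (3.16 ± 0.51). Control replicate 3 was far above the other controls, and TXNIP also fell in the controls between 24 h and 48 h (-2.91, adjusted p = 0.017). ADM, a hypoxia-responsive peptide hormone gene, rose by 2.10 ± 0.39 and ALDOC at least 3.71-fold (means 2.45 and 5.89, adjusted p = 1.1e-05), while PDK1 fell by 1.24.

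Of 29 cytosolic ribosomal protein genes 0 were called in limma, and 3 had an unadjusted p under 0.05; 1 rose and 2 fell under the replicate block, 1 fell without low dose replicate 2 and 1 rose without low dose replicate 3. Of 30 ribosome biogenesis factors 4 rose and 4 fell, with 14 rises under the block. Heat shock genes had 6 of 18 higher and 1 lower, with 3 higher without low dose replicate 1 or 3 or control replicate 2. In the remaining lists of this paragraph, 22.9% (oxidative phosphorylation) to 43.8% (junction genes) of the tested members were called, against 37.9% over all genes. ER chaperones had 4 higher and 3 lower of 26, oxidative phosphorylation 4 and 4 of 35, tRNA synthetases 2 and 3 of 17, purine and pyrimidine synthesis 1 and 5 of 21, and BCL2 family genes 2 and 2 of 14. Junction genes had 3 and 4 of 16, YAP targets 3 and 4 of 19, the EGF family 2 and 4 of 16 and aryl hydrocarbon receptor genes 1 and 2 of 7. Under the replicate block the rises were 4 among tRNA synthetases and in purine and pyrimidine synthesis, and 5 in the BCL2 and EGF families. The falls under the block were 7 each among ER chaperones, oxidative phosphorylation, junction genes and YAP targets. Single arrays also moved many of these small counts. The rises among tRNA synthetases were 0 without control replicate 1 or 2 or low dose replicate 3 and 1 without low dose replicate 2. Those among ER chaperones were 2 without control replicate 1 and 1 without control replicate 2 or low dose replicate 1. The rises in oxidative phosphorylation were 1 without control replicate 1 or 2 or low dose replicate 2 or 3 and 2 without low dose replicate 1, and its falls 1 without control replicate 2 and 2 without low dose replicate 1 or 3. The falls in purine and pyrimidine synthesis were 3 without control replicate 1 or low dose replicate 1, and its only rise was lost without control replicate 1 or 2 or low dose replicate 2 or 3. The falls of the BCL2 family were 0 without control replicate 1 or low dose replicate 1 or 3 and 1 without control or low dose replicate 2, and its rises 4 without low dose replicate 2. Junction rises were 1 without control replicate 1 or low dose replicate 1, and junction falls 2 without low dose replicate 3. YAP target falls were 1 without low dose replicate 1 and 2 without control replicate 1 or 3 or low dose replicate 2. EGF family rises were 4 without control replicate 3. The rise in the aryl hydrocarbon receptor list was lost when any single array but control replicate 3 was left out, and its falls were 1 without that array or low dose replicate 1.

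Markers of the proximal tubule were only partly present. Of 33 with a probe set 15 were tested, and the endocytic receptors LRP2 and CUBN, the water channel AQP1 and the transporters SLC34A1, SLC5A2 and SLC22A6 stayed under 4 on all 6 arrays, while DPP4 (mean of 11.74 in the controls), PAX8 (10.92) and CDH16 (9.15) were expressed. Of the 15, 3 rose and 2 fell, with 5 and 5 under the replicate block, 5 rises without low dose replicate 2 and 1 fall without low dose replicate 3. MIOX, the kidney inositol oxygenase, fell by 0.67 ± 0.15, and KRT18 rose by 0.39. SLC3A1, the heavy chain of the cystine transporter, fell by 1.82 ± 0.49 (adjusted p = 0.00866), a call lost without low dose replicate 3 (0.0511). PCK1, a gluconeogenic enzyme, stayed dim and was at least 1.79-fold higher (means 3.14 and 4.84, adjusted p = 5.33e-05), and both groups of SLC7A9 were under 4. The mean level of the 15 tubule markers was 9.75, 9.61 and 9.38 in the controls and 9.80, 9.72 and 9.52 at the low dose. Of the leukocyte and endothelial marker genes, PTPRC, CD14, PECAM1 and VWF were under 4 throughout, 1 of 10 and 2 of 10 were tested, and EGFL7 alone was called lower, a call lost without control replicate 1 or 3 or low dose replicate 1 or 3. Of the distal nephron markers 4 of 15 were tested and SCNN1A rose by 0.77 on the brighter of its probe sets, the other being at -0.20 and not called, and of the podocyte markers 2 of 4 were tested and SYNPO rose. Of the fibroblast markers 5 of 12 were tested and 0 called, 2 with an unadjusted p under 0.05, 2 fell without low dose replicate 2, and 1 rose and 2 fell under the block. DCN was expressed at 10.96 in the controls and 10.49 at the low dose, a difference called with the replicate block (adjusted p = 0.00321).

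Kidney injury markers did not move together. Of 18, 2 rose (CD44 by 0.90 ± 0.21, ANXA1 by 0.76 ± 0.19) and 2 fell, and 4 and 5 did under the replicate block. The other 7 probe sets of CD44, all dimmer, changed by -0.02 to 0.65 and were not called. KRT20 fell from 8.42, 8.96 and 8.70 to 4.37, 7.13 and 4.48 (-3.36 ± 0.62), with replicate 2 nearest the controls, and VCAM1, an adhesion molecule, by 1.52 ± 0.28. HAVCR1, the injury marker KIM-1, was at 11.11, 11.29 and 11.33 in the controls and at 10.73, 11.14 and 11.08 at the low dose. The groups overlapped, and the change of -0.26 ± 0.16 was not called (adjusted p = 0.208) and was called with the replicate block (0.0338). LCN2 stayed under 4 on all arrays compared. Of 31 matrix and mesenchymal genes 5 rose and 3 fell, with 9 falls under the block and 1 without control replicate 1. SMAD3, which carries TGF-beta signals, rose by 1.68 ± 0.21. MMP1, an interstitial collagenase, rose by 1.76 ± 0.23 (floored 1.68), against a fall of 3.08 in the controls between 24 h and 48 h.

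Genes known for very long genomic spans, which were not measured here, were lower in most cases. Of 78 with a probe set 60 were tested. Of these 60, 45 fell and 0 rose, with a median of -1.67, and 49 had an unadjusted p under 0.05. A gene could pass the level filter through the control arrays alone, so these counts do not stand for all genes of the list. With the mean of all probe sets of a gene, 40 of 51 fell and the median was -1.03. With the replicate block 50 fell and 1 rose. Leaving out 13 genes that earlier results of these data had named, 34 of 47 fell and 0 rose, with a median of -1.30. DIAPH2, a formin, was at 8.38, 8.52 and 8.08 in the controls and at 3.01, 7.13 and 2.94 at the low dose (-3.97 ± 0.90, floored -3.28, adjusted p = 0.00309). IMMP2L, a mitochondrial peptidase subunit, went from 7.80, 7.79 and 7.57 to 3.32, 4.83 and 3.50 (-3.83 ± 0.41, floored -3.44). SMYD3, a lysine methyltransferase, went from 9.39, 9.61 and 9.30 to 4.55, 7.24 and 4.76 (-3.92 ± 0.76). In all 3, replicate 2 kept the highest level of the low dose arrays without reaching the controls. ROBO1, an axon guidance receptor, fell by 2.83, GPHN, the scaffold gephyrin, by 2.67 and EXOC4, an exocyst subunit, by 2.50. The 15 members that were not called ranged from -1.70 for ANK3 to 0.41 for RERE, and both of these were called with the replicate block (adjusted p = 0.0432 and 0.006).

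The fall of these genes differed in size between the replicates. The median difference of the 60 genes from the control of the same number was -1.77 in replicate 1, -0.92 in replicate 2 and -2.02 in replicate 3, and in 49 of the 60 genes it was least negative in replicate 2. The mitotic medians of the same pairs were 0.82, 0.76 and 0.54. Without low dose replicate 2, 49 of 60 fell with a median of -1.97, and without low dose replicate 3, 35 fell with a median of -1.28. Their mean level was 8.65, 8.73 and 8.39 in the controls at 48 h, 7.09, 7.83 and 6.97 at the low dose at 24 h and 6.58, 7.59 and 6.30 at 48 h, so that replicate 2 was the highest low dose array at both times. It was 5.54, 4.65 and 4.59 at the high dose, where 44 of the 60 were lower than at the low dose and 0 higher. These means and counts are not floored. With values at or under 4 set to 4, SMYD3, PRKCB and ROBO1 lost this call (adjusted p = 0.185, 0.0612 and 0.0561). The difference of AGAP1 was then -2.25 instead of -3.62. Between 24 h and 48 h, 0 of the 60 fell and 1 rose in the controls, the latter ROBO2 (1.62, floored 1.33), a call lost without 24 h control replicate 2 or 3 or 48 h control replicate 1 or 2. The interaction was called for ATRNL1 alone (-1.99, floored -1.18), and for 7 of the 60 without 48 h low dose replicate 2.

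**Figure D5:**
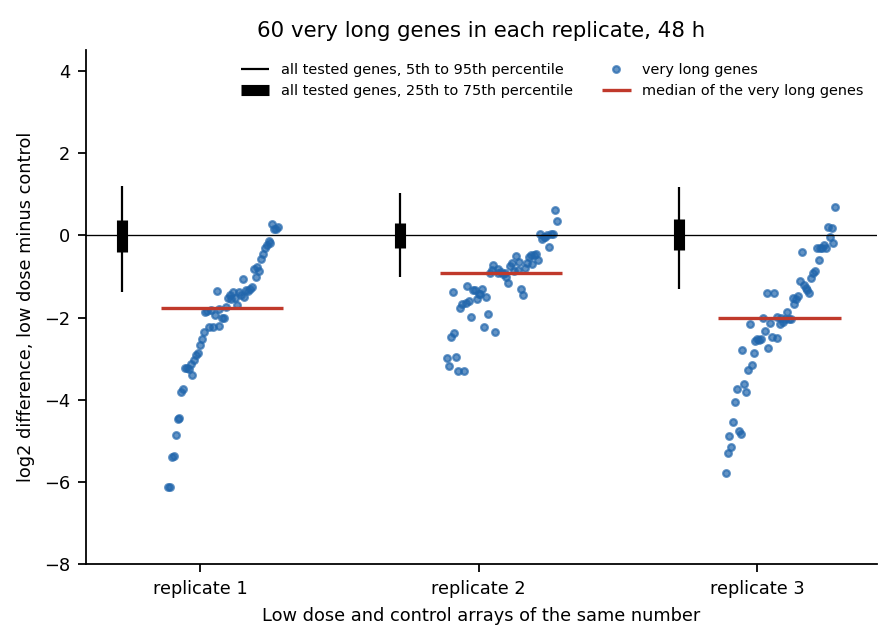
Log2 difference between the low dose and the control array of the same number (vertical axis) for the 60 very long genes (points, ordered by their mean difference) in each of the 3 replicates, with their median as a red line and the spread of all tested genes as black bars. The medians are -1.77, -0.92 and -2.02.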

How the data were processed

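The 18 Aa arrays of the 36 in the series, 6 groups of 3, entered 1 model, and the low dose and control groups at 48 h were its main contrast. The deposited log2 values per probe set were computed with GCRMA according to the submitters' processing notes. No source used here gives its version or which arrays were normalized as 1 set. No scan dates were used, so batches could not be tested. The number of arrays limits the precision.

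Of 54675 probe sets, 62 controls were left out; 41091 had 1 gene symbol in the platform annotation, 1801 several and 11721 none. Each of 19775 genes was taken from its probe set with the highest mean over all arrays, those ending in _x_at only where a gene had no other. RefSeq tables gave current names (41037 sets matched) and promoters. Genes above 4 on at least 3 Aa arrays were tested on group means with lmFit and eBayes (limma 3.58.1, R 4.3.3, 12 residual degrees of freedom), two-sided with Benjamini-Hochberg adjustment over all tested genes. The script was tested on simulated data with independent noise, which lacked the shared deviations of same-numbered arrays seen here. Where no array of the dimmer group exceeded 4, a fold is given as a lower bound against the higher of 4 and its own level. A floored change has values at or under 4 set to 4 and is given where it differed by over 0.1. Figures used matplotlib 3.10.9 in Python 3.11.15.

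The comparison, the 38 gene lists and the very long genes were chosen with earlier results of these data known. Named genes were the 15 largest rises and falls among called genes whose groups did not overlap, up to 4 most changed called members per list, the 5 largest each way for the interaction and for high against low dose, and 20 fixed names; other list members are named as examples after their values were seen. Comparisons of the 48 h with the 24 h controls, of the low dose at 48 h with the 24 h controls, of the low dose effects at both times and of both doses at 48 h came from the same fit and share arrays. A list of genes switched on by toxins had 16 of 16 members higher, but was chosen for that.

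Arrays with the same replicate number deviated together from their group means: low dose and control arrays at 48 h had correlations of 0.458, 0.487 and 0.514 for the same number and -0.368 to -0.163 for different numbers. The 36 correlations over 4 pairs of groups gave 0.189 or more for every same-numbered pair. The pairing is taken from the data, as the labels name no shared day. Results with the replicate number as a block are given beside those they changed most. Other alternatives were filters, normalization, probe set choice, the arrays in the fit and leaving out each array.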

Additional observations from a re-analysis of the deposited data

Results flagged for a closer look

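The low dose effect at 48 h differed from that at 24 h in 180 genes by the interaction test. Positive differences were called in TNFAIP6 (3.85), CDKN2B (3.03), ENC1 (2.80), HBEGF (2.29) and RSPH9 (2.24). Some of the groups behind them were at or under 4, and with such values set to 4 the differences were 2.66 in TNFAIP6, 2.60 in CDKN2B and 1.31 in RSPH9, the last no longer called (adjusted p = 0.0925). Negative ones were called in CHMP2A (-2.63), ATRNL1 (-1.99, floored -1.18), KISS1R (-1.54), FUOM (-1.53) and RNASEH2C (-1.36). Among the proliferation and stress genes of the text, MKI67 (1.29), TOP2A (1.09), CCNB1 (1.28), CDK1 (0.73) and FOS (2.14, floored 1.88) also differed. TNFAIP6 itself changed in the controls with time (floored -1.47, adjusted p = 0.0256 with that floor) and was at least 3.33-fold higher at the low dose than in controls at 48 h (means 2.80 and 5.74, adjusted p = 7.41e-06). KISS1R, under 4 in all 24 h controls, rose in the controls with time (floored 1.52, adjusted p = 6.1e-05 with that floor). For HBEGF, RSPH9 and all 5 negative differences the call was lost when any of several single arrays was left out, with adjusted p-values up to 0.129.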

How the results depend on the processing

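The call count of low dose against control, 4158, ranged from 3159 to 5839 over all alternatives, with 5839 under the replicate block, and the counts of the low dose against 24 h controls and of high against low dose stayed within 1.5 times. The ageing count of 142 did not hold: it was 0 with only the 6 arrays of the groups compared (limma, 1841 genes at an unadjusted p under 0.05), 243 with a trended, robust prior, 1792 with the replicate block and 17 to 550 with 1 array left out. The interaction count of 180 was 77 with only the arrays compared, 1022 with the block and 66 to 253 with 1 array left out. The cause was not tested beyond the fewer arrays of some fits. Of 153 called named genes, 153 kept their call and direction under the block, and 135 to 143 with 1 of the 6 arrays left out. Reversed were SC5D (0.19) and NT5E (0.054) with the mean of all probe sets, and SLC7A9 (-0.00) with values at or under 4 set to 4, both of its groups being under that level. Calls gained with the block stand beside their genes in the text. The alternatives that leave out the very long genes named before or allow all probe sets ending in _x_at were chosen after seeing the data. With 3 arrays a group, small changes and levels near 4 are least certain.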

Other observations

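Some genes outside the lists changed with the low dose by large amounts. ENC1, an actin-binding protein gene, went from 6.30, 5.68 and 6.30 in the controls to 9.49, 8.75 and 8.96 (2.97 ± 0.22, adjusted p = 3.19e-07), and the low dose arrays lay far above the controls. FUOM, a fucose mutarotase, went from 8.44, 8.26 and 8.81 to 5.72, 5.96 and 6.47 (-2.45 ± 0.26), and RNASEH2C, a subunit of ribonuclease H2, from 8.24, 8.49 and 8.59 to 5.25, 6.12 and 5.22 (-2.91 ± 0.21). The groups did not overlap in either gene. RNASEH2C was higher at the high than at the low dose by 1.64 (adjusted p = 2.8e-05), and CHMP2A by 1.35 (0.02). The kisspeptin receptor gene KISS1R went from 5.96, 5.45 and 5.17 to 3.37, 3.46 and 3.17, at least 2.88-fold lower (means 5.52 and 3.33, adjusted p = 5.06e-06).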
